A study of Rattus norvegicus with 30 samples.

Results

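Interferon-stimulated and antigen presentation genes were followed in cultured hepatocytes of the rat given acetaminophen, a pain reliever that is toxic to the liver in overdose. The set held 43 genes: 8 genes of MHC class I antigen presentation, 4 transcription factors, 2 RNA sensors, 15 antiviral effectors, 4 genes of ISG15 conjugation, 3 interferon-induced GTPases and 7 other interferon-induced proteins. They were selected on their known function, with results of these data in view, and each gene was read from the probe set chosen by its mean log2 signal over all arrays. Of the 43, 42 were named on the array, which carried 14217 genes in all; Xaf1 was not. Among the 8531 brightest genes, which were tested, were 38 members. The selection makes the counts below descriptions of these members, not independent evidence on interferon genes.

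The cells were frozen male Sprague Dawley hepatocytes bought from a supplier, thawed, plated on collagen, covered with Matrigel and dosed on the third day of culture. There were 6 groups of 5 wells, which received 1% DMSO as vehicle, 500 µM acetaminophen or 5000 µM acetaminophen for 24 or 48 h, and 1 Affymetrix rat array was run per well. The design asks how dose and time of exposure act; both doses at a time share its vehicle wells. The labels call the wells of a group independent cultures, but all came from a purchased cell product whose number of donor animals is not given in the sources used here, so each p-value measures the spread between wells. The labels name no treatment with interferon or virus.

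Interferons are secreted proteins that warn cells of infection. Type I interferons bind a receptor of the subunits Ifnar1 and Ifnar2, whose kinases Jak1 and Tyk2 activate Stat2. With Irf9 it takes part in a complex that binds the interferon-stimulated response element in the promoters of antiviral genes. Interferon gamma acts in part through Irf1 and raises the genes that cut, transport and load peptides onto MHC class I molecules, which display them to T cells. Hepatocytes carry the receptors, and many of these genes also have a basal level without added interferon.

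Hepatocyte markers marked the cultures: 9 of 10 were named on the array, all 9 were tested, and their summed signal was 331112 to 454425 over the 30 arrays. Bright markers led this sum, and single markers moved within it. Cyp2c11 had mean signals of 16258 in vehicle and 9911 at 5000 µM at 24 h, and of 7905 and 3188 at 48 h. Those of Hnf4a were 15326 and 13313, then 9199 and 10793, and those of Alb 47306 and 50915, then 53805 and 55528. RNA quality was read from β-actin, as the log2 of its 3'-end control signal over its 5'-end one, which is higher where transcripts are shorter. The group means of this 3'/5' ratio ran from 1.21 ± 0.05 (SD, n = 5) at 5000 µM for 48 h to 1.86 ± 0.12 at 500 µM for 48 h. Sorted, the ratios had their widest gap at 1.64, and 12 arrays lay above it: 3 of 5 vehicle arrays and 3 of 5 arrays at 500 µM at 24 h, 1 of 5 at 5000 µM at 24 h, all 5 at 500 µM at 48 h, and none of the vehicle or 5000 µM arrays at 48 h. Hence at 48 h the high dose and its vehicle had like ratios, whereas the low dose and the ratio cannot be told apart.

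At 5000 µM and 48 h most tested members of the set lay lower than in vehicle, though not all of these were called. Of the 38 tested members, 18 fell and 3 rose, against 18.0% of all tested genes called lower and 14.6% called higher. The member median was -0.27 on the log2 scale, and 30 of 38 members lay below 0, beside an all-gene median of -0.01. A gene was called where limma's adjusted p, corrected over all 8531 genes by Benjamini-Hochberg, was under 0.05. The falls were spread over the roles: 9 of 14 antiviral effectors, 5 of 8 MHC class I genes, 2 of 4 ISG15 genes and both tested GTPases fell, while none of the 4 transcription factors did. Centring each array on its median gave 17 falls and no rise, beside 1033 falls and 835 rises among all 8531 tested genes. In cultures of this kind, fewer cells of a type and less RNA per cell cannot be told apart.

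At 5000 µM and 24 h the picture was split. There were 8 members that fell and 4 that rose, against 19.6% of all tested genes called lower and 18.6% called higher, with a member median of -0.02 and an all-gene median of 0.00. Of the falls 6 were antiviral effectors (Mx2, Rsad2, Oas1a, Isg20, Oasl and Parp14), and the others were Isg15 and Igtp. The rises were in Irf7, Ifi35, Ifi44 and Bst2. No MHC class I gene of the 8 was called at 24 h at either dose, but Psmb8 was called lower at 5000 µM with the 3'/5' ratio as a model term (-0.33, adjusted p = 0.00149), with the side of its gap as a block (-0.25, 0.0072) and on the arrays below the gap alone (-0.29, 0.0354). With centred arrays 11 members were called lower and 2 higher at this dose and time, beside 1747 and 807 of all 8531 tested genes. The 3'/5' ratio was 1.78 ± 0.24 in these vehicle wells and 1.37 ± 0.22 in the treated ones (SD, n = 5). With it as a model term 8 members fell and 4 rose, beside 1250 and 1351 of all tested genes. Of these members 10 were the same genes: Parp14 (-0.16, adjusted p = 0.192) and Bst2 (0.17, adjusted p = 0.0892) lost their calls, and Psmb8 and Herc6 were called.

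**Figure D1:**
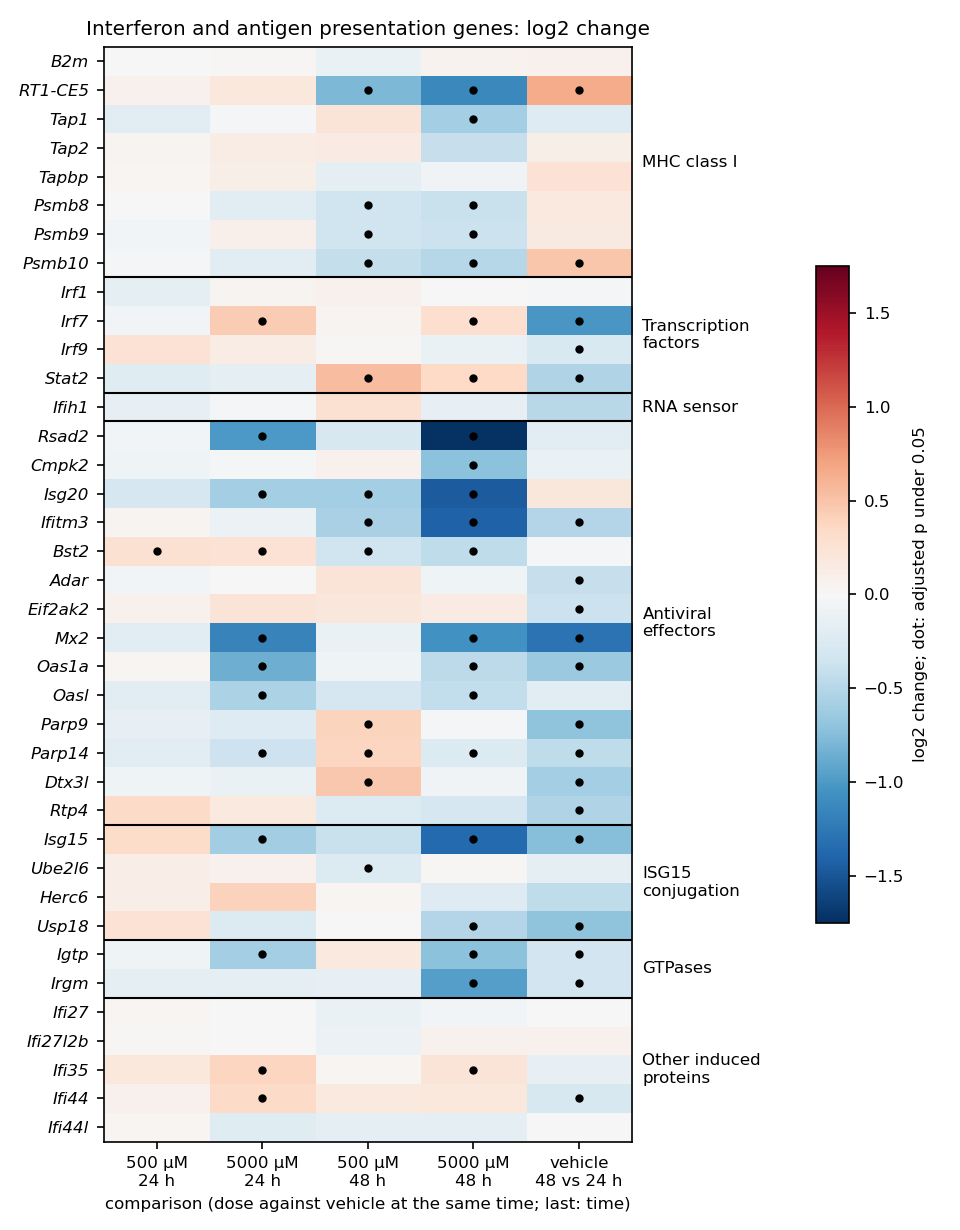
Heat map of log2 changes of the 38 tested members (rows, grouped by role) in 5 comparisons (columns): each dose against vehicle at the same time, and 48 h against 24 h in vehicle. Blue is lower and red is higher, and a dot marks an adjusted p under 0.05; the column for 5000 µM at 48 h holds 18 falls and 3 rises.

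Other liver cells also express these genes, and some markers of Kupffer cells and leukocytes were lower at 5000 µM. Of 25 such markers 22 were on the array and 3 were bright enough to be tested. The summed signal of the 22 was 25656 to 32992 in vehicle and 21929 to 25022 at 5000 µM at 24 h, and it was 26192 to 30585 and 22800 to 25377 at 48 h. Cd14 alone, which hepatocytes also express, took 14815 to 20683 in vehicle and 10811 to 13885 at 5000 µM at 24 h, and 15454 to 18280 and 12467 to 14748 at 48 h. Without Cd14 the sums overlapped, at 10841 to 12309 and 10619 to 12023 at 24 h and at 10577 to 12415 and 9721 to 11456 at 48 h. The macrophage marker Adgre1 and the leukocyte marker Ptprc had group mean signals of 23.2 to 44.6 and 91.5 to 162, below the dimmest tested gene at 469.2. The 19 dim markers summed to 2990 to 3914 in vehicle and 3073 to 3835 at 5000 µM at 24 h, and to 2340 to 3830 and 2293 to 3364 at 48 h, with overlap at both times. By group means 13 of the 22 markers were lower at 5000 µM at 24 h and 15 at 48 h, and 2 of them, Cd14 and the natural killer cell receptor Klrb1a, were lower in every treated well at both times. Klrb1a had signals of 279 to 475 in vehicle and 153 to 264 at 5000 µM at 24 h, and of 327 to 423 and 71 to 164 at 48 h. The complement genes of macrophages C1qa, C1qb and C1qc had means of 244, 96.5 and 166 in vehicle and 172, 36.5 and 70.9 at 5000 µM at 48 h, with overlapping wells, while Aif1 and Ms4a1 had higher means at 5000 µM. No marker had a group mean of 0. The part of these cells in the falls was not tested.

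Many members share a short promoter sequence, shown here because the genes that fell at 5000 µM include carriers and non-carriers. The interferon-stimulated response element was searched in simplified letters, GAAANNGAAA or, for the other strand, TTTCNNTTTC, where N is any base, within 250 bases before the start in RefSeq promoters of the GRCr8 rat assembly. A promoter counted once however many matches, overlapping or not, it held. Promoters were listed for 36 of the 43 members, all but Dhx58, Adar, Mx2, Rtp4, Isg15, Usp18 and Ifi27l2b. A match lay in 22 of the 36 (61.1%) and in 1140 of all 33469 promoters (3.41%). The gamma-activated site was searched as TTCNNNGAA, which reads the same on both strands, and lay in 10 of the 36 (27.8%) and in 2566 of all promoters (7.67%). A match of the first motif is meant in what follows. Of the members that fell at 5000 µM and 48 h, 15 had a promoter and 10 of these held a match. Of those not called, 8 of 14 did, and of those that rose, 1 of 3 did. A match of letters is no evidence of a bound factor. The stretches around matches follow, read 5′ to 3′ on the gene's strand, with the matched letters in capitals. The first 8 belong to genes that fell at 5000 µM and 48 h, the ninth to Irf7, which rose, and the last to B2m, whose change was not called:
Rsad2: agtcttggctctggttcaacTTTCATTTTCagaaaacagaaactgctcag
Isg20: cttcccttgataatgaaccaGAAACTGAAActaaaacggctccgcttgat
Ifitm3: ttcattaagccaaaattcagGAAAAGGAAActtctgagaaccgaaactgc
Oas1a: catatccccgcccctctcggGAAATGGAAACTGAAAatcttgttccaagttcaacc
Igtp: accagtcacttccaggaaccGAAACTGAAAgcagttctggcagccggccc
Irgm: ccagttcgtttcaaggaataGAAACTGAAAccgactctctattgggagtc
Tap1: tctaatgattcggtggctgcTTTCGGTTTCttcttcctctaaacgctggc
Psmb10: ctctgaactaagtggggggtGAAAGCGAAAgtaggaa
Irf7: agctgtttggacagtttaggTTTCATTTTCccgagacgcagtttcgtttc
B2m: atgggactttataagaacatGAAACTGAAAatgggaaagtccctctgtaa
In GRCr8 these lie at chr6:48788238-48788287 (Rsad2, minus strand), chr1:142239947-142239996 (Isg20, plus), chr1:205541773-205541822 (Ifitm3, minus) and chr12:41330405-41330460 (Oas1a, plus). The next ones lie at chr10:42874924-42874973 (Igtp, plus), chr10:33742583-33742632 (Irgm, minus), chr20:4668635-4668684 (Tap1, minus) and chr19:50743293-50743329 (Psmb10, minus). The last 2 lie at chr1:205800063-205800112 (Irf7, minus) and chr3:129549160-129549209 (B2m, plus). Each is upstream of the annotated start. The match ends 138 bases before the start in Rsad2 and 8 bases before it in Psmb10. RT1-CE5, which fell, and Stat2, which rose, had a listed promoter without these letters.

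The antiviral effectors held the largest falls. Rsad2 encodes viperin, an enzyme that makes a chain-terminating nucleotide against viruses. Its signal in vehicle at 48 h was 2056, 2079, 2306, 2399 and 3388, and at 5000 µM it was 549, 626, 734, 878 and 908. The treated wells all lay below the vehicle wells, and Rsad2 fell by 1.73 ± 0.18 on the log2 scale (SE; 3.31-fold lower, adjusted p = 2.43e-09). At 24 h the vehicle wells gave 1951, 2708, 2795, 2818 and 3666, and those at 5000 µM 1025, 1298, 1364, 1571 and 1642. These groups did not overlap either, and Rsad2 fell by 1.01 ± 0.18 (adjusted p = 2.59e-05). The test of the difference between the times gave -0.72 ± 0.25 (adjusted p = 0.0425), a call that was lost with the ratio as a model term (-0.58, adjusted p = 0.178), with the side of its gap as a block (-0.72, 0.0633), with centred arrays (-0.66, 0.0828) and with the mean of probe sets (-0.72, 0.0524). Cmpk2, the next protein-coding gene to Rsad2 in the RefSeq table, supplies nucleotides to viperin. It fell by 0.72 ± 0.15 at 48 h and gave -0.03 ± 0.15 at 24 h, where it was not called.

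Isg20, an exonuclease that degrades viral RNA, was lower at 5000 µM at both times. At 24 h its signal in vehicle was 1591, 1665, 1692, 1807 and 1811, and at 5000 µM 964, 971, 1195, 1210 and 1334. At 48 h the vehicle wells read 1796, 1845, 1979, 2013 and 2190 and the 5000 µM wells 592, 660, 752, 786 and 815. In neither case did the groups overlap. Isg20 fell by 0.60 ± 0.10 at 24 h (adjusted p = 8.89e-06) and by 1.45 ± 0.10, or 2.74-fold, at 48 h (adjusted p = 2.91e-13). At 500 µM its wells read 1222, 1407, 1414, 1492 and 1498 at 24 h, all below vehicle, but the change of -0.29 ± 0.10 was not called (adjusted p = 0.105).

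Ifitm3, a membrane protein that blocks entry of viruses, did not pass the test at 24 h (-0.10 ± 0.11 at 5000 µM). At 48 h its signal in vehicle was 5730, 6368, 6544, 7240 and 7398, and at 5000 µM 2062, 2114, 2456, 2907 and 2984. Every treated well lay below every vehicle well. The fall was 2.68-fold (log2 -1.42 ± 0.11, adjusted p = 2.39e-12), and it differed from the 24 h change by -1.32 ± 0.15 (adjusted p = 2.22e-07).

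Mx2, a dynamin-like GTPase that traps viral components, fell at both times. In vehicle at 24 h its signal was 1959, 2121, 2831, 3544 and 3614, and at 5000 µM 785, 1078, 1379, 1465 and 1502. In vehicle at 48 h it was 777, 980, 1160, 1262 and 1556, and at 5000 µM 467, 474, 510, 572 and 694. The vehicle wells at 48 h thus overlapped the treated wells at 24 h, but at each time the doses stood apart. Mx2 fell by 1.17 ± 0.20 at 24 h (adjusted p = 1.84e-05) and by 1.06 ± 0.20 at 48 h (adjusted p = 9.4e-05), and the test of the difference between the times called none (0.12 ± 0.28, adjusted p = 0.825). Its dimmer probe set, at a geometric mean signal of 187, gave -0.12 ± 0.28 and 0.19 ± 0.28, neither called; with the mean of both sets the 48 h change was -0.43 and lost its call.

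Oas1a makes the messenger that activates RNase L, which cuts RNA. At 24 h its vehicle wells read 1390, 1522, 1569, 1656 and 1990, and its 5000 µM wells 764, 888, 903, 918 and 1010. No treated well reached the lowest vehicle well, and Oas1a fell by 0.85 ± 0.12 (adjusted p = 5.45e-07). At 48 h it fell by 0.46 ± 0.12 and its relative Oasl by 0.43 ± 0.15. Oasl also fell at 24 h, by 0.55 ± 0.15, with overlapping wells. Parp14, an ADP-ribosyltransferase, fell by 0.36 ± 0.09 at 24 h and 0.24 ± 0.09 at 48 h. Its 48 h call was lost with centred arrays (-0.24, adjusted p = 0.132) and with the mean of its probe sets (-0.27, adjusted p = 0.0634).

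Bst2, or tetherin, which holds budding viruses at the cell surface, was the brightest effector. In vehicle at 24 h its signal was 19342, 21075, 21964, 22872 and 23729, and at 500 µM 24524, 24613, 25271, 26941 and 29552. The low-dose wells all exceeded the vehicle wells, a rise of 0.26 ± 0.07 (adjusted p = 0.0273). This was the only call among the 38 members at 500 µM and 24 h, where 1.65% of all tested genes were called higher and 1.21% lower. It lost its call without vehicle replicate 1, vehicle replicate 2 or 500 µM replicate 5 (adjusted p = 0.0929, 0.066 and 0.12). At 5000 µM Bst2 rose by 0.25 ± 0.07 at 24 h and fell by 0.44 ± 0.07 at 48 h, and the test of the difference gave -0.69 ± 0.10 (adjusted p = 6.24e-06). The 24 h rise lost its call with the ratio as a model term, with centred arrays (0.19, adjusted p = 0.168) and on the arrays below the gap alone (0.22, adjusted p = 0.0518). The remaining effectors, Adar, Eif2ak2, Parp9, Dtx3l and Rtp4, gave -0.30 to 0.14 at 5000 µM and 48 h, and none of them was called there.

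**Figure D2:**
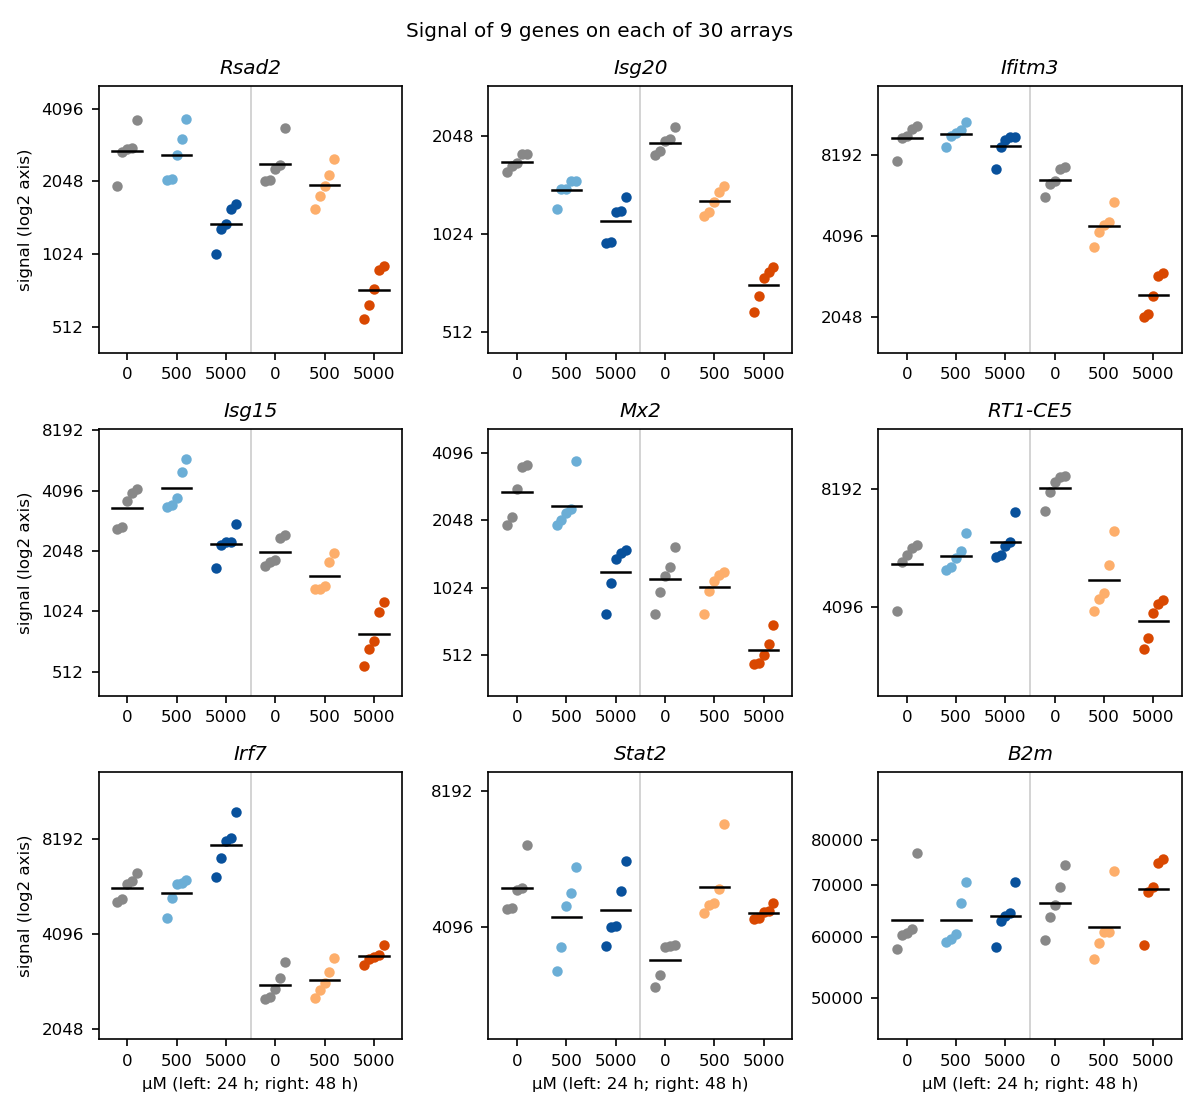
Signal of 9 members on each of the 30 arrays (y axis on a log2 scale) by dose of acetaminophen, with 24 h on the left and 48 h on the right of each panel; points are arrays, spread sideways in order of signal, and bars are geometric means of 5 arrays. Rsad2 at 5000 µM and 48 h lay between 549 and 908, below all of its vehicle wells. The brighter probe set of B2m lay between 56119 and 77115 on all arrays. At 5000 µM its dimmer set, not drawn, gave log2 changes of 0.23 ± 0.06 at 24 h and 0.33 ± 0.06 at 48 h.

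ISG15 is a ubiquitin-like protein that is joined to other proteins by Ube2l6 and Herc6 and removed by Usp18, which also damps receptor signalling. Isg15 in vehicle at 48 h had signals of 1718, 1802, 1844, 2390 and 2460, and at 5000 µM 545, 665, 725, 1014 and 1138. The wells did not overlap, and Isg15 fell 2.56-fold (log2 -1.36 ± 0.18, adjusted p = 6.08e-07). At 24 h it fell by 0.61 ± 0.18 (adjusted p = 0.00872), with overlapping wells, and on the arrays below the ratio gap alone this was not called (-0.50, adjusted p = 0.128). Over all 30 arrays Isg15 had the widest range among the 42 members on the array, with a highest signal 10.8 times the lowest. Usp18 fell by 0.51 ± 0.12 at 48 h and gave -0.24 ± 0.12, not called, at 24 h. With centred arrays its 24 h change was called lower (-0.30, adjusted p = 0.0363). The joining enzymes were not called at 5000 µM: Ube2l6 gave 0.02 ± 0.08 and Herc6 -0.23 ± 0.18 at 48 h. With the ratio as a model term Herc6 was called higher at 24 h (0.56, adjusted p = 0.043).

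The interferon-induced GTPases Igtp and Irgm mark and disrupt the vacuoles of intracellular microbes. Igtp signals in vehicle at 24 h were 2427, 2458, 2654, 2769 and 3055, and at 5000 µM 1702, 1768, 1785, 1788 and 1793. The treated wells were tightly grouped below the vehicle wells, and Igtp fell by 0.59 ± 0.07 (adjusted p = 9.35e-08). At 48 h it fell by 0.72 ± 0.07. A dimmer Igtp probe set, at a geometric mean signal of 552, gave 0.20 ± 0.24 at 24 h and -0.17 ± 0.24 at 48 h, neither called; with the mean of both sets the 24 h change was -0.20 and lost its call. Irgm was not called at 24 h (-0.17 ± 0.10) and fell by 0.96 ± 0.10 at 48 h, a difference of -0.78 ± 0.14 (adjusted p = 0.000198).

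None of the 5 other induced proteins tested was called lower at 5000 µM with the arrays as deposited and no covariate. Of all tested genes 19.6% were called lower at 24 h and 18.0% at 48 h. Ifi35, a leucine zipper protein, had signals of 2857, 2870, 3041, 3101 and 3240 in vehicle at 24 h and 3340, 3599, 4041, 4150 and 4444 at 5000 µM. Its treated wells all lay above the vehicle wells, and it rose by 0.37 ± 0.07 (adjusted p = 8.12e-05). At 48 h the rise was 0.22 ± 0.07, with overlapping wells. Ifi44 rose by 0.34 ± 0.10 at 24 h without overlap, a call lost with centred arrays (0.28, adjusted p = 0.09), and gave 0.19 ± 0.10, not called, at 48 h. Its neighbour in the RefSeq table, Ifi44l, gave -0.21 ± 0.09 and -0.16 ± 0.09 and was not called. At 24 h Ifi44l was called lower with the side of the ratio gap as a block (-0.26, adjusted p = 0.037) and with centred arrays (-0.28). Ifi27 and Ifi27l2b, small mitochondrial proteins, were among the brightest genes of the array, ranks 51 and 16 of 14217, and ranged from 46148 to 62309 and from 58472 to 72880 over the 30 arrays. Their changes against vehicle lay between -0.12 and 0.08, none called, and Ifi27l2b was 0.17 ± 0.05 higher at 5000 than at 500 µM at 48 h.

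Of the 4 transcription factors 1 rose at 24 h and 2 rose at 48 h at 5000 µM, and none fell. Of all tested genes 18.6% rose and 19.6% fell at 24 h, and 14.6% rose and 18.0% fell at 48 h. Irf7, the factor that amplifies type I interferon production, had signals of 5159, 5298, 5894, 6031 and 6400 in vehicle at 24 h and 6214, 7121, 8061, 8244 and 9904 at 5000 µM. The treated group had 1 well within the vehicle range and 4 above it. Irf7 rose by 0.45 ± 0.10 (adjusted p = 0.000535). At 48 h it rose by 0.30 ± 0.10 at 5000 µM (adjusted p = 0.0179), with vehicle wells at 2550, 2582, 2744, 2962 and 3345 and treated wells at 3274, 3402, 3472, 3502 and 3766, which overlapped. Stat2 rose by 0.35 ± 0.13 at 48 h (adjusted p = 0.0328), from 3013, 3198, 3702, 3710 and 3740 to 4262, 4284, 4411, 4445 and 4638, without overlap. Irf1 and Irf9 gave -0.01 ± 0.09 and -0.12 ± 0.10 and were not called. Centring the arrays on their medians left no rise called among the members at 5000 µM and 48 h, beside 835 rises among all 8531 tested genes. The RNA sensor Ifih1, which detects long double-stranded RNA, gave -0.15 ± 0.20 and was not called in any comparison with vehicle.

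Among the 8 MHC class I genes 5 fell at 5000 µM and 48 h, against 18.0% of all tested genes: RT1-CE5, Tap1, Psmb8, Psmb9 and Psmb10. RT1-CE5, named by the array annotation as a class I heavy chain, had signals of 7174, 8047, 8531, 8756 and 8832 in vehicle at 48 h and 3188, 3407, 3949, 4170 and 4264 at 5000 µM. The treated wells all lay below the vehicle wells, a 2.19-fold fall (log2 -1.13 ± 0.11, adjusted p = 1.27e-09). Its change at 24 h was 0.18 ± 0.11, not called, and the test of the difference gave -1.31 ± 0.16 (adjusted p = 5.42e-07). A further 4 probe sets carry the same gene name. Those at geometric mean signals of 4071, 1782 and 1235 gave -0.92 ± 0.12, -0.36 ± 0.11 and -0.43 ± 0.15 at 5000 µM and 48 h, and the dimmest, at 25.1, gave 0.11 ± 0.61. At 24 h the set at 1235 gave 0.66 ± 0.15 (adjusted p over all probe sets = 0.00182). Rat class I genes are near copies of each other, so these probe sets may read several genes together.

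Peptides for class I molecules are cut by the immunoproteasome, whose special subunits are Psmb8, Psmb9 and Psmb10. At 5000 µM and 48 h these fell by 0.39 ± 0.08, 0.37 ± 0.09 and 0.50 ± 0.13, each without overlap of wells. Their constitutive counterparts Psmb5 and Psmb7 gave -0.07 ± 0.10 and 0.06 ± 0.08 and were not called in any dose comparison with vehicle or over time in vehicle; the difference between the kinds of subunit was not tested. Tap1, a subunit of the peptide transporter, fell by 0.60 ± 0.10 (adjusted p = 3.33e-05; -0.28 and not called with the mean of its probe sets), and Tap2, its partner, gave -0.40 ± 0.16 and missed the threshold (adjusted p = 0.0519). Tap2, Psmb8, Tap1 and Psmb9 follow each other without another protein-coding gene between them on chromosome 20 of the RefSeq table. Tapbp, the loading chaperone tapasin, gave -0.06 ± 0.10.

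B2m, the light chain of every class I molecule, had the 14th highest mean signal of the array. Its brighter probe set gave 0.02 ± 0.08 at 24 h and 0.06 ± 0.08 at 48 h at 5000 µM, not called. A dimmer set, at a geometric mean signal of 14822, gave 0.23 ± 0.06 and 0.33 ± 0.06 (adjusted p over all probe sets = 0.00593 and 0.000158). The sets disagree, and the change of B2m at 5000 µM therefore depends on the probe set read.

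The 26 tested antiviral genes, without MHC class I genes and transcription factors, can be set beside the 8 class I genes at 5000 µM. At 24 h, 8 of 26 antiviral genes fell, 3 rose and their median was -0.11, while none of 8 class I genes was called and their median was 0.05. Of all tested genes 19.6% were called lower and 18.6% higher. Psmb8 was called lower in the fits with the ratio. At 48 h, 13 of 26 fell, 1 rose and the median was -0.27, and 5 of 8 class I genes fell with a median of -0.39. Of all tested genes 18.0% were called lower and 14.6% higher at this time. The difference between the effects at 48 h and 24 h was called lower in 7 of the 26 antiviral genes (Rsad2, Cmpk2, Isg20, Ifitm3, Bst2, Isg15 and Irgm) and in 3 of the 8 class I genes (RT1-CE5, Tap1 and Psmb9). Over all members 10 were called lower and 1 (Stat2) higher in this difference, against 8.66% and 7.74% of all tested genes. The count called fell from 11 to 7 without 5000 µM replicate 5 at 24 h. Whether the role groups differ from each other was not tested.

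**Figure D3:**
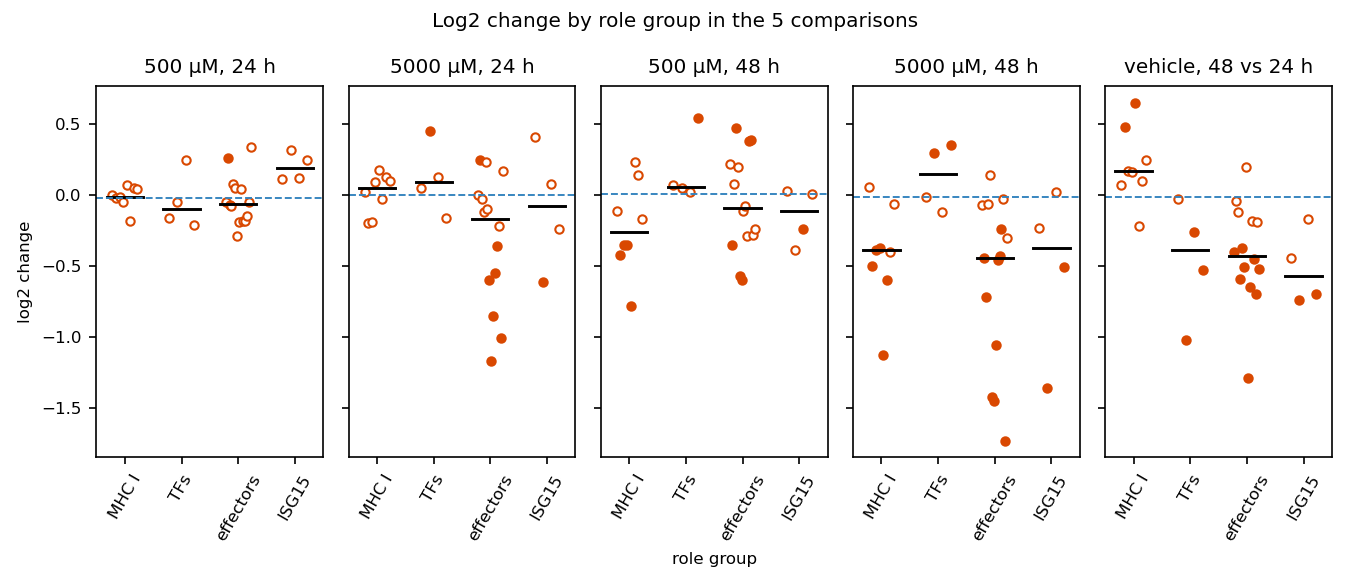
Log2 change of each tested member of 4 role groups (x axis: MHC class I genes, transcription factors, antiviral effectors and ISG15 genes) in the 5 comparisons; filled points were called at an adjusted p under 0.05, black bars are group medians and the dashed line is the median of all tested genes. At 5000 µM and 48 h the medians are -0.39, 0.15, -0.44 and -0.37.

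At 500 µM and 48 h, 8 members fell and 4 rose, against 18.6% of all tested genes called lower and 24.0% called higher, with a member median of -0.09. With centred arrays 4 fell and 6 rose, beside 431 and 2328 of all 8531 tested genes. That scaling also moved the median of all genes from 0.01 to 0.10. RT1-CE5 fell most: its low-dose wells read 3992, 4274, 4425, 5230 and 6398, all below vehicle, a fall of 0.78 ± 0.11 (adjusted p = 3.7e-06). Isg20 read 1163, 1201, 1288, 1384 and 1444 and fell by 0.60 ± 0.10 (adjusted p = 2.08e-05). Ifitm3 read 3719, 4256, 4509, 4608 and 5471 and fell by 0.57 ± 0.11 (adjusted p = 0.000101). Both lay below all of their vehicle wells. For Psmb10 the vehicle wells read 2054, 2206, 2292, 2524 and 2904 and the low-dose wells 1628, 1762, 1799, 1832 and 1886, a fall of 0.42 ± 0.13 (adjusted p = 0.0103). Psmb8 and Psmb9 fell by 0.35 and 0.35, Bst2 by 0.35 and Ube2l6 by 0.24.

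The rises at 500 µM and 48 h were in Stat2 and in 3 neighbouring genes of chromosome 11, Parp9, Dtx3l and Parp14. Stat2 read 4396, 4587, 4617, 4967 and 6911, above its vehicle wells, and rose by 0.54 ± 0.13 (adjusted p = 0.00117). Dtx3l, a ubiquitin ligase that works as a pair with Parp9, read 1878, 1907, 2055, 2097 and 2172 in vehicle and 2385, 2500, 2953, 3071 and 3157 at 500 µM. Its wells did not overlap, and it rose by 0.47 ± 0.12 (adjusted p = 0.00309). Parp9 rose by 0.39 ± 0.10 and Parp14 by 0.38 ± 0.09.

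The 3'/5' ratio stood apart in these low-dose wells, and with it in the model most of their calls did not hold. With the ratio as a covariate 2 falls (Ifitm3 at -0.52 and RT1-CE5 at -0.59) and no rise were called, and with the side of the gap as a block Isg20 (-0.46) was also called. The loss was not particular to the members. Of all 8531 tested genes 1588 fell and 2044 rose without the ratio, 127 and 212 with the covariate, and 179 and 305 with the block. Stat2 went from 0.54 to 0.08, Dtx3l from 0.47 to 0.04 and Psmb10 from -0.42 to -0.19 with the covariate. At 5000 µM and 48 h the covariate gave 19 falls and 3 rises in place of 18 and 3, and the arrays below the gap alone, which include all wells of both groups, gave 18 and 3. Of all tested genes 1630 fell and 1396 rose with the covariate, and 1605 and 1370 on those arrays. The part of RNA quality in the low-dose changes cannot be told apart from the dose.

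**Figure D4:**
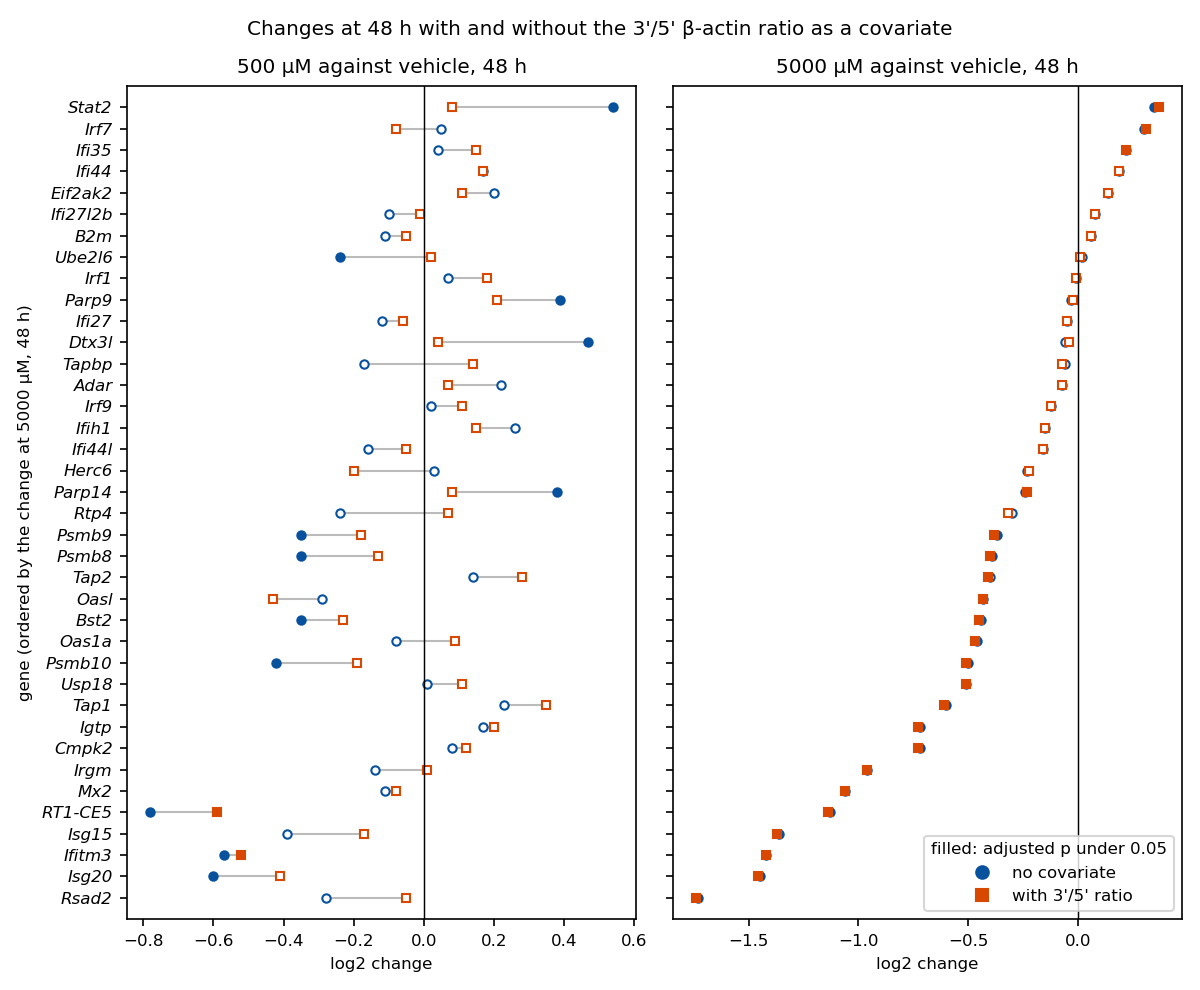
Log2 change against vehicle at 48 h (x axis) of the 38 tested members (y axis, in order of the change at 5000 µM) without (circles) and with (squares) the 3'/5' β-actin ratio as a covariate, for 500 µM on the left and 5000 µM on the right; filled symbols were called at an adjusted p under 0.05. On the left 2 genes are called with the covariate in place of 12, and on the right 22 in place of 21. Of all 8531 tested genes, 127 fell and 212 rose with the covariate on the left, in place of 1588 and 2044.

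In vehicle wells many members were lower at 48 h than at 24 h, and none of these was a class I gene. Of the 38 members 17 were lower and 2 higher at 48 h, against 19.0% and 13.4% of all tested genes, and the member median was -0.24. By role, 9 of 14 effectors, 3 of 4 transcription factors, 2 of 4 ISG15 genes, both GTPases and 1 of 5 other proteins fell. With the 3'/5' ratio as a model term Irf7 (-0.91) was the only transcription factor called, and Stat2 was at -0.14 (adjusted p = 0.609). Mx2 fell most, by 1.29 ± 0.20 (adjusted p = 2.06e-05), from the signals given above. Irf7 fell by 1.02 ± 0.10 (adjusted p = 5.51e-09), also without overlap. Isg15 read 2650, 2710, 3626, 4001 and 4158 at 24 h and fell by 0.74 ± 0.18 (adjusted p = 0.00275). Its 48 h wells, at 2460 or less, all lay below the 24 h wells.

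Parp9 read 2971, 3142, 3316, 3423 and 3548 in vehicle at 24 h and 1807, 1932, 2022, 2062 and 2245 at 48 h. It fell by 0.70 ± 0.10 (adjusted p = 3.96e-06), and its neighbours Dtx3l and Parp14 fell by 0.59 and 0.45. With the ratio as a model term Dtx3l was at -0.22 (adjusted p = 0.362) and Parp14 at -0.19 (adjusted p = 0.31), and both lost their calls. Usp18 read 3548, 4551, 4836, 4993 and 5113 and then 2593, 2665, 2670, 3056 and 3088. These did not overlap, and Usp18 fell by 0.70 ± 0.12 (adjusted p = 3.87e-05). RT1-CE5 went the other way. At 24 h its vehicle wells read 3988, 5309, 5558, 5790 and 5895, all below those at 48 h, and it rose by 0.65 ± 0.11 (adjusted p = 6.18e-05). The same vehicle wells at 48 h are the base of its falls at both doses. The other rise was in Psmb10 (0.48 ± 0.13). Its call was lost with the ratio as a model term (0.28, adjusted p = 0.351) and with the side of the gap as a block (0.41, 0.0563). It was also lost on the arrays below the gap alone (0.41, 0.0858). The 3'/5' ratio moved here too, from 1.78 ± 0.24 to 1.24 ± 0.11. With it as a model term 11 members fell and 1 rose, beside 240 and 200 of all 8531 tested genes. With the arrays below the gap alone 13 members fell and 1 rose, beside 801 and 465 of all tested genes. In the latter Isg15 lost its call (-0.62).

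The high dose was also set against the low dose. At 24 h 8 members were lower and 3 higher at 5000 than at 500 µM, against 14.3% and 16.8% of all tested genes. With centred arrays it was 9 and 1, beside 1227 and 592 of all 8531 tested genes. Isg15 differed by -0.93 ± 0.18 and Irf7 by 0.50 ± 0.10, both without overlap. At 48 h 17 were lower and 4 higher, against 28.2% and 19.4% of all tested genes. With centred arrays 18 were lower and none higher, beside 2711 and 760 of all tested genes. With the 3'/5' ratio as a model term 15 were lower and 1 higher, beside 1025 and 757 of all tested genes. With the side of its gap as a block it was 15 and none, beside 1171 and 850. Rsad2 differed most (-1.44 ± 0.18), and all 14 tested effectors lay below 0, 10 of them called. Psmb8, Psmb9 and Psmb10 differed between the doses by -0.03 ± 0.08, -0.02 ± 0.09 and -0.08 ± 0.13, not called. With the ratio as a model term their changes against vehicle were -0.13, -0.18 and -0.19 at 500 µM. At 5000 µM they were then -0.40, -0.38 and -0.51, so the likeness of the doses depends on the model. The low-dose effects at 48 h and 24 h differed in 5 members upward and 7 downward, against 22.1% and 14.5% of all tested genes. With centred arrays it was 5 and 3, beside 1833 and 273 of all 8531 tested genes. With the ratio as a model term no member was called, and only 2 and 1 of all tested genes were.

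Genes upstream of the members were read from further lists. Of 11 interferon genes 3 were named on the array, Ifnb1, Ifng and Ifnk, all too dim to be tested, with signals between 4.46 and 225. The counts that follow stand against 18.0% of all tested genes called lower and 14.6% called higher at 5000 µM and 48 h, and 19.6% and 18.6% at 24 h. Among 13 tested receptor and JAK-STAT genes, 4 rose and none fell at 5000 µM and 48 h: the receptor chains Ifnar1 (0.48 ± 0.13) and Ifnar2 (0.25 ± 0.08), Pias1 (0.33 ± 0.12), a SUMO ligase, and Irf3 (0.26 ± 0.07). At 24 h at this dose 3 rose and 3 fell, among them Irf2 (-0.69 ± 0.18), Stat3 (-0.37 ± 0.14) and the kinase Jak1 (-0.30 ± 0.09), lower, and Pias1 (0.30 ± 0.12), higher. In 11 tested genes of nucleic acid sensing, 3 rose and 1 fell at 48 h, with Rnaseh2c (0.68 ± 0.09), Traf3 (0.51 ± 0.13) and Trim25 (0.47 ± 0.09) higher and the DNA exonuclease Trex1 (-0.29 ± 0.10) lower.

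Further interferon-stimulated genes, 28 of them tested, showed 11 falls and 2 rises at 5000 µM and 24 h, where 19.6% of all tested genes were called lower and 18.6% higher. At 48 h they showed 6 falls and 2 rises, with the falls near the 18.0% of all tested genes called lower. Ifit2, which binds viral RNA, fell by 0.71 ± 0.08 and 0.87 ± 0.08, and Trim14 by 0.52 ± 0.08 and 0.51 ± 0.08. The T cell chemokine Cxcl11 fell by 0.65 ± 0.10 at 48 h. Tor3a rose by 0.98 ± 0.13 and 0.82 ± 0.13. Of 17 further class I and loading genes tested, 4 rose and 2 fell at 5000 µM and 48 h, where 14.6% of all tested genes were called higher and 18.0% lower. RT1-S3 fell by 0.70 ± 0.09 and RT1-N2 by 0.48 ± 0.10, while RT1-CE10, another class I heavy chain, rose by 0.40 ± 0.13 and the chaperone Calr by 0.49 ± 0.08. Class I heavy chain genes thus moved in both directions, within the limit that their probe sets may cross-read. Of 3 tested class II genes 1, RT1-DMa, fell (-0.54 ± 0.13).

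There were 4 members too dim to be tested. Lgals3bp, at a geometric mean signal of 465, and Dhx58, at 446, lay just under the threshold, and Oasl, at 614, and Tap2, at 646, were the dimmest members above it. Gbp2 had signals of 199 to 549 and Mx1 of 89.9 to 273 over the 30 arrays. Without the filter Gbp2, a guanylate-binding protein, gave -0.89 ± 0.18 at 5000 µM and 48 h with all treated wells below vehicle (adjusted p = 0.000437), and Lgals3bp, a secreted glycoprotein, gave -0.41 ± 0.13 (adjusted p = 0.0245). Dhx58, an RNA sensor related to Ifih1, gave -0.73 ± 0.13 over time in vehicle (adjusted p = 0.000164). Mx1, a relative of Mx2, was not called.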

How the data were processed

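RNA of 30 wells was measured on the Affymetrix rat genome array, in 6 groups of 5. The authors deposited linear signal intensities made with MAS5, per the submitters' processing notes; the 2% trimmed mean of each array was 1500.55 to 1500.66, so all arrays had been scaled to 1 level. Such scaling hides a change in total RNA. The number of arrays limits the precision. Probe sets were named from the platform annotation, updated through gene IDs: 20832 of 31099 had 1 symbol, 436 had several and were left out, and 57 were controls. Each of 14217 genes was read from the probe set of highest mean log2 signal, and the brightest 60% (8531) were tested.

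A model with 1 mean per group over all arrays was fitted with limma 3.58.1 in R 4.3.3 (empirical Bayes with an intensity trend, 24 residual and 7.58 prior degrees of freedom), and p-values were adjusted by Benjamini-Hochberg over all tested genes. Signals were read as deposited, changes are log2 differences with their SE, and genes were called at an adjusted p under 0.05. The fit was tested on simulated data. Members given in full were called, had no overlap between the groups' wells and, per comparison, were up to the 6 largest changes; of the further lists, up to 4 called genes per comparison were named. Markers of 5 cell kinds were read. At 48 h the summed endothelial and stellate markers overlapped between vehicle and 5000 µM, and the bile duct sum, led by 1 tested marker of 7 listed, was 13495 to 14653 in vehicle and 12216 to 13384 at 5000 µM. The members, lists and tests were chosen with earlier results of these data known. Alternatives were other scaling, filters, probe set means, a pseudocount of 50, no trend, only the groups compared, the 3'/5' ratio as a covariate or block, and each array left out. Fits on arrays of 1 side of the ratio gap were chosen after seeing the data. Figures were drawn with matplotlib 3.10.9 in Python 3.11.15.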

Additional observations from a re-analysis of the deposited data

Results flagged for a closer look

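Dixon's ratio of gap to range was taken on log2 signals in 96 groups, over the 16 genes given in full. By this ratio, single wells stood apart from the other 4 of their group in 5 groups, and about 1 in 20 groups would do so by chance. Mx2 was at 3763 in replicate 4 of 500 µM at 24 h, above the rest. Stat2 was at 6911 in replicate 3 of 500 µM at 48 h, also above. Below the rest lay RT1-CE5 at 3988 in vehicle replicate 2 at 24 h, Igtp at 1702 in replicate 2 of 5000 µM at 24 h, and Oas1a at 626 in replicate 2 of 5000 µM at 48 h.

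The effect of 5000 µM differed between 48 h and 24 h in 11 members, by the limma test of the difference itself (48 h minus 24 h, log2). RT1-CE5 (-1.31 ± 0.16), Tap1 (-0.57 ± 0.15) and Psmb9 (-0.46 ± 0.13) of the class I genes were lower by 48 h. So were the effectors Ifitm3 (-1.32 ± 0.15), Isg20 (-0.85 ± 0.14), Rsad2 (-0.72 ± 0.25), Bst2 (-0.69 ± 0.10) and Cmpk2 (-0.69 ± 0.21), together with Irgm (-0.78 ± 0.14) and Isg15 (-0.75 ± 0.26). Stat2 differed upward (0.51 ± 0.18, adjusted p = 0.0464). With the 3'/5' ratio in the model Psmb9, Rsad2, Cmpk2, Isg15 and Stat2 were not called, and with centred arrays these and Tap1 were not.

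The effect of 500 µM differed between the times in 12 members. Lower by 48 h were RT1-CE5 (-0.85 ± 0.16), Isg15 (-0.72 ± 0.26), Ifitm3 (-0.62 ± 0.15), Bst2 (-0.61 ± 0.10), Rtp4 (-0.58 ± 0.20), Ube2l6 (-0.36 ± 0.11) and Psmb8 (-0.34 ± 0.11). Higher were Stat2 (0.75 ± 0.18), Parp14 (0.56 ± 0.13), Dtx3l (0.55 ± 0.17), Parp9 (0.54 ± 0.14) and Tap1 (0.41 ± 0.15). Tap1 thus differed upward at the low dose and downward at the high dose; both contrasts share the vehicle wells, and the difference between the doses in this respect was not tested. The 3'/5' ratio of the 500 µM wells went from 1.61 ± 0.33 to 1.86 ± 0.12 (SD, n = 5) while that of vehicle went from 1.78 ± 0.24 to 1.24 ± 0.11. Its part in these differences was not tested apart from the fits with the ratio. With it as a covariate none of the 12 was called. In that fit only 2 of all 8531 tested genes were called higher and 1 lower, so the lack of calls is not particular to these members.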

How the results depend on the processing

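Members called at 5000 µM and 48 h (21) and at 5000 against 500 µM and 48 h (21) stayed within 1.5 times under every alternative run, with 19 to 21 when any array was left out. Their rises held less well. The 3 rises at 5000 µM and 48 h became 0 with centred arrays. The 4 at 5000 against 500 µM and 48 h became 0 with centred arrays, 1 with the ratio as a covariate and 0 with the side of its gap as a block. Rises among all tested genes went from 1243 to 835 at 5000 µM and 48 h with centred arrays. At 5000 against 500 µM they went from 1657 to 760 with centred arrays, 757 with the covariate and 850 with the block. With a tighter filter on dim genes, which leaves 26 members tested, 7 members were called in place of 12 at 5000 µM and 24 h, and 6 in place of 11 at 5000 against 500 µM and 24 h. The single call at 500 µM and 24 h (Bst2) became 0 with centred arrays, with only the groups compared, with the actin ratio as a covariate and with the arrays above its gap alone, was replaced by Usp18 (0.60, adjusted p = 0.0419) on those below it, where Bst2 was at 0.26 (adjusted p = 0.145), and ranged from 0 to 1 with an array left out. With the covariate 2 members in place of 12 were called at 500 µM and 48 h, 12 in place of 19 in vehicle over time, 0 in place of 12 for the difference between the 500 µM effects, and 6 in place of 11 for that between the 5000 µM effects. All 8531 tested genes lost calls there too. With the covariate 212 were higher and 127 lower at 500 µM and 48 h, in place of 2044 and 1588. In vehicle over time it was 200 and 240 in place of 1145 and 1625. For the difference between the 500 µM effects it was 2 and 1 in place of 1886 and 1240, and for the 5000 µM effects 388 and 433 in place of 660 and 739. With the side of the ratio gap as a block 3 were called at 500 µM and 48 h and 3 for the difference between the 500 µM effects. Of all tested genes 305 were then higher and 179 lower at 500 µM and 48 h, and 464 and 218 for that difference. The difference between the 5000 µM effects gave 5 calls with centred arrays, 7 with the mean of all probe sets and 7 to 12 with an array left out (7 without 5000 µM replicate 5 at 24 h). With centred arrays 445 of all tested genes were higher and 175 lower in this difference, and with the mean of probe sets 480 and 659. The cause was not tested. For the 25 changes given in full, 1013 values were recomputed, none changed direction and 19 lost their call, 8 of them of Bst2 at 500 µM and 24 h. Calls of other members were also lost, as given beside them. Signal over background limits the dim members.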

Other observations

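Within groups, some members varied together from well to well. Over 703 pairs of tested members the median Pearson's r of the deviations from group means was 0.07 over the 30 arrays. Its quartiles were -0.15 and 0.28. Over all pairs of tested genes the median was 0.00, with quartiles of -0.19 and 0.19, so the members as a set lay near it. Over the 28 pairs of class I genes the median was 0.34. The highest pairs joined the brightest members: B2m and Ifi27 (r = 0.93), B2m and Ifi27l2b (0.91) and Ifi27 and Ifi27l2b (0.87). Next came Parp14 and Stat2 (0.80), Isg15 and RT1-CE5 (0.74) and Mx2 and Oas1a (0.73). The lowest pairs were Adar and Tapbp (-0.64), Adar and Psmb9 (-0.64) and Ifi35 and Parp9 (-0.64). The points of a pair share their array and its scaling, so these values are descriptions.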
